A study of Arabidopsis thaliana with 27 samples.

Results

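AT4G17470, AT1G54010, AT4G24340 and AT4G24350 are 4 Arabidopsis thaliana genes for hydrolase and phosphorylase-like proteins. They were grouped because they stood higher in mutants than in wild type on the Psm arrays of this study, so every value with Psm is given as a description, with no test. Their probes were found by name in the platform annotation, which is old, and each gene has 1 probe. They are 4 of the 181 named genes among the 576 probes of the array. Tests were run only on leaves with hrcC. All 27 arrays had been examined when the genes were chosen, so the hrcC tests cannot be called independent of that choice.

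RNA of leaves from plants aged 4 weeks was hybridised to 27 one-colour arrays, in 3 experiments that the labels call sets 1 to 3. The genotypes were the cbp60h mutant, the cbp60g cbp60h pad4 triple mutant, the cbp60g cbp60h double mutant, the pad4-1 mutant and the wild type Col-0. Leaves received either Pseudomonas syringae ES4326, which the labels shorten to Psm, or the hrcC mutant of Pseudomonas syringae pv. tomato DC3000, which lacks a working type III secretion system. With Psm at 24 h there were 3 arrays each of the triple mutant, the double mutant, pad4-1 and Col-0, 1 from each set. With hrcC at 9 h there were 3 arrays of cbp60h (sets 1 to 3) and 2 arrays (sets 1 and 2) of each of the other 4 genotypes. With hrcC at 24 h each of those 4 genotypes had 1 array, in set 3. The cbp60h mutant has no Psm array here, and no array of uninfiltrated or mock-infiltrated leaves was used. Every sample pooled leaves of several plants from several pots, and the labels name the allele for pad4-1 only. In whole leaves, fewer cells of a type and less RNA per cell cannot be told apart.

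Salicylic acid is the plant hormone that drives defence against biotrophic bacteria, and it is known to oppose jasmonate signaling. CBP60g and CBP60h (also called SARD1) are related transcription factors that turn on salicylic acid synthesis, and PAD4 is a lipase-like protein that acts in the same pathway. AT4G17470 codes for a protein of the alpha/beta hydrolase superfamily, whose members cleave esters and thioesters among other bonds. AT1G54010 is GLL23, a GDSL lipase-like gene, of a family of esterases named for a sequence motif around the active serine. AT4G24340 and AT4G24350 code for phosphorylase superfamily proteins, related to enzymes that split nucleosides, and lie next to each other on chromosome 4. Cross-hybridisation between probes of such related neighbours was not tested, since the probe sequences were not used here.

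All values are the deposited log2 values, and each stands for the brightness of 1 probe. They are compared only within a probe. A difference of 1 is a 2-fold difference if the base of the logarithm is 2, which was read from the values. Over the 27 arrays AT4G17470 ranged between 2.38 and 8.74, with an SD of 1.90 that is the fourth highest of the 181 named genes. AT1G54010 ranged between 2.87 and 7.04 (SD 0.99), AT4G24340 between 2.94 and 5.42 (SD 0.71), and AT4G24350 between 3.62 and 6.64 (SD 0.77). The highest array of AT4G17470, AT1G54010 and AT4G24350 was a triple mutant array with Psm, and that of AT4G24340 was a double mutant array with Psm. The lowest array of AT1G54010, AT4G24340 and AT4G24350 was Col-0 with Psm in set 1, and that of AT4G17470 was the triple mutant with hrcC at 24 h.

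**Figure D1:**
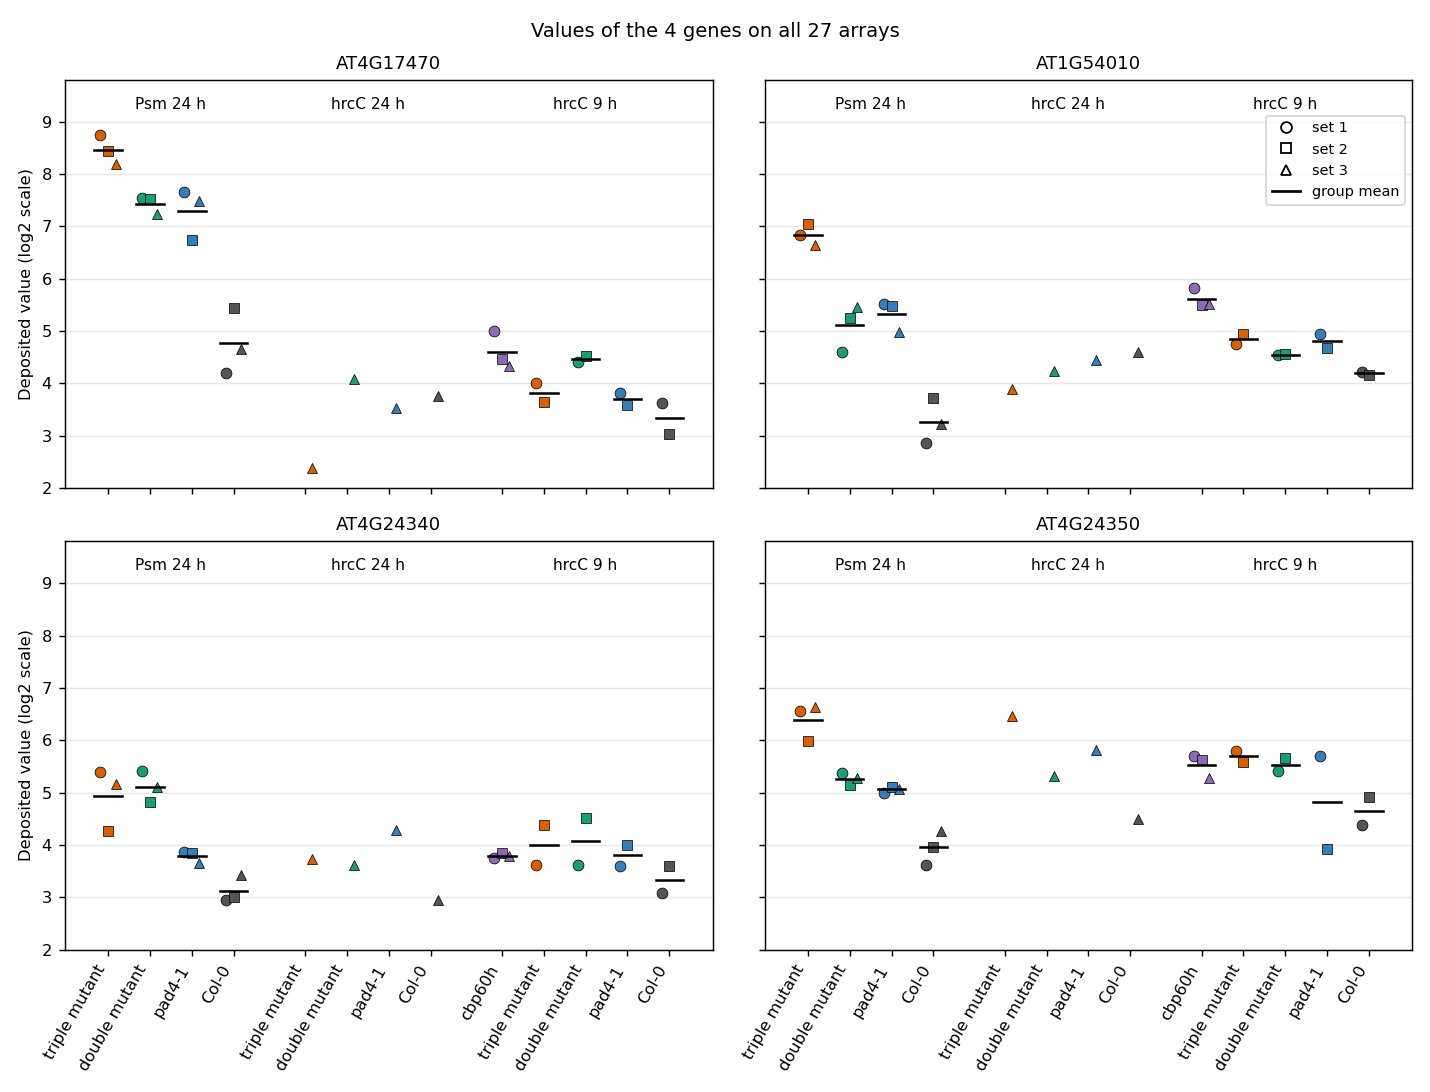
Deposited log2 value (vertical axis) of each of the 4 genes on all 27 arrays, by bacterium, time and genotype. Points are single arrays, symbols mark sets 1 to 3, and black lines are means of groups with 2 or 3 arrays. With Psm the Col-0 points lie below every mutant point in all 4 panels.

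With Psm at 24 h, AT4G17470 stood at 8.74, 8.44 and 8.20 in the triple mutant in sets 1, 2 and 3. It stood at 7.54, 7.53 and 7.24 in the double mutant and at 7.66, 6.74 and 7.49 in pad4-1. In Col-0 it stood at 4.19, 5.43 and 4.66. Every triple mutant array lay above every array of the other genotypes, the double mutant and pad4-1 overlapped, and all Col-0 arrays lay lowest. The means were 8.46 ± 0.27 in the triple mutant, 7.44 ± 0.17 in the double mutant and 7.30 ± 0.49 in pad4-1, against 4.76 ± 0.63 in Col-0 (SD, n = 3 each). The difference from Col-0 was 3.70 (SE 0.30) in the triple mutant, 2.67 (SE 0.30) in the double mutant and 2.53 (SE 0.30) in pad4-1. In each of these 3 comparisons it was the largest positive difference among the 181 named genes, on the arrays for which the gene was chosen.

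AT1G54010, the GDSL lipase-like gene, stood at 6.84, 7.04 and 6.64 in the triple mutant with Psm in sets 1, 2 and 3. It stood at 4.60, 5.26 and 5.46 in the double mutant and at 5.51, 5.49 and 4.98 in pad4-1. In Col-0 it stood at 2.87, 3.73 and 3.22. Here too the triple mutant lay above every other array, the double mutant and pad4-1 overlapped, and Col-0 lay below every mutant array. Means were 6.84 ± 0.20 in the triple mutant, 5.11 ± 0.45 in the double mutant and 5.33 ± 0.30 in pad4-1, against 3.27 ± 0.43 in Col-0 (SD, n = 3 each). The triple mutant exceeded Col-0 by 3.56 (SE 0.24), the double mutant by 1.83 (SE 0.24) and pad4-1 by 2.05 (SE 0.24).

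AT4G24340, one of the phosphorylase-like neighbours, stood at 5.39, 4.27 and 5.16 in the triple mutant with Psm in sets 1, 2 and 3. It stood at 5.42, 4.83 and 5.11 in the double mutant and at 3.86, 3.85 and 3.66 in pad4-1. In Col-0 it stood at 2.94, 3.01 and 3.44. The triple and double mutants overlapped, both lay above pad4-1, and pad4-1 lay above Col-0 on every array. Means were 4.94 ± 0.59 in the triple mutant, 5.12 ± 0.30 in the double mutant and 3.79 ± 0.11 in pad4-1, against 3.13 ± 0.27 in Col-0 (SD, n = 3 each). The difference from Col-0 was 1.81 (SE 0.29) in the triple mutant, 1.99 (SE 0.29) in the double mutant and 0.66 (SE 0.29) in pad4-1.

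AT4G24350, the other neighbour, stood at 6.55, 5.98 and 6.64 in the triple mutant with Psm in sets 1, 2 and 3. It stood at 5.37, 5.15 and 5.29 in the double mutant and at 5.002, 5.10 and 5.08 in pad4-1. In Col-0 it stood at 3.62, 3.97 and 4.27. The 4 genotypes did not overlap, in the order triple mutant, double mutant, pad4-1, Col-0, and the gap between the double mutant and pad4-1 was small. Means were 6.39 ± 0.36 in the triple mutant, 5.27 ± 0.11 in the double mutant and 5.06 ± 0.05 in pad4-1, against 3.95 ± 0.33 in Col-0 (SD, n = 3 each). The triple mutant exceeded Col-0 by 2.44 (SE 0.32), the double mutant by 1.32 (SE 0.32) and pad4-1 by 1.11 (SE 0.32).

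All 4 genes lay above Col-0 on every Psm array of each mutant. Of the 181 named genes, 12.2% did so in the triple mutant, 10.5% in the double mutant and 8.84% in pad4-1, and nothing is read from this because the genes were chosen on these arrays. Within sets, the smallest difference from Col-0 with Psm was 0.22, for AT4G24340 in pad4-1 of set 3, and the largest was 4.55, for AT4G17470 in the triple mutant of set 1. The median difference of all named genes between the triple mutant and Col-0 with Psm was -0.13, and other scalings moved it to 0.10 (quantile) and 0.08 (each array centred on its median). Relative to that median, the triple mutant exceeded Col-0 by 3.83 for AT4G17470, 3.70 for AT1G54010, 1.95 for AT4G24340 and 2.57 for AT4G24350. After quantile normalization the same quantities were 3.98, 3.75, 1.89 and 2.53.

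The mutants were also set against each other with Psm, again as a description. The triple mutant exceeded the double mutant by 1.03 (SE 0.30) for AT4G17470, 1.73 (SE 0.24) for AT1G54010 and 1.12 (SE 0.32) for AT4G24350. For AT4G24340 it lay 0.17 lower (difference -0.17, SE 0.29), and this sign turned to 0.11 after centring on the median. The triple mutant exceeded pad4-1 by 1.16 (SE 0.30) for AT4G17470, 1.51 (SE 0.24) for AT1G54010, 1.16 (SE 0.29) for AT4G24340 and 1.33 (SE 0.32) for AT4G24350. AT4G24340 was also the 1 gene of the 4 with a wide gap between the double mutant and pad4-1, at 1.33 (SE 0.29). That gap was 0.14 (SE 0.30) for AT4G17470, -0.22 (SE 0.24) for AT1G54010 and 0.21 (SE 0.32) for AT4G24350, each smaller than its SE, and scaling or 1 left-out array turned the sign for AT4G17470 (-0.05, quantile) and AT1G54010 (0.03, without the double mutant of set 1).

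Both mutant backgrounds meet in the triple mutant, so its difference from Col-0 can be set beside the sum of the double mutant and pad4-1 differences. For AT4G24350 the triple mutant difference was 2.44 and the sum 2.42, a departure of 0.02 (SE 0.45). For AT1G54010 it was 3.56 against a sum of 3.89, a departure of -0.32 (SE 0.34). For AT4G17470 it was 3.70 against 5.21, a departure of -1.51 (SE 0.42), and for AT4G24340 it was 1.81 against 2.65, a departure of -0.83 (SE 0.41). As deposited, the departure was smaller than its SE for AT4G24350 and AT1G54010, and below 0 by more than its SE for AT4G17470 and AT4G24340. Other scalings, tried after these values were seen, moved it. For AT4G17470 it was -1.08 (quantile) and -1.20 (centring), and for AT4G24340 -0.62 (quantile) and -0.52 (centring). For AT1G54010 it was -0.24 (quantile) and -0.0085 (centring), and for AT4G24350 0.22 (quantile) and 0.33 (centring). With each of the 12 arrays left out in turn it stayed below 0 for AT4G17470 (-1.84 to -1.22), AT4G24340 (-1.06 to -0.50) and AT1G54010 (-0.57 to -0.12), and lay on either side of 0 for AT4G24350 (-0.14 to 0.22). The AT4G24340 value nearest 0 came without the triple mutant of set 2, and it was then -0.50.

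**Figure D2:**
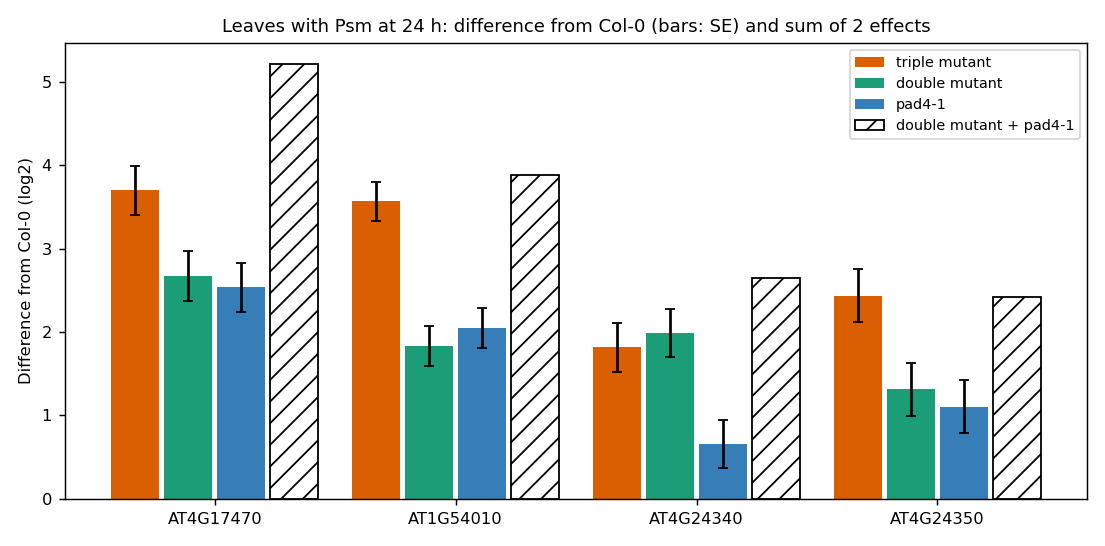
Difference from Col-0 with Psm at 24 h (log2, vertical axis) for each gene in the triple mutant, the double mutant and pad4-1, with SE bars, n = 3 arrays each. The hatched bar is the sum of the double mutant and pad4-1 differences, which stands at 5.21 beside 3.70 in the triple mutant for AT4G17470, and at 2.42 beside 2.44 for AT4G24350.

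With hrcC at 9 h the cbp60h mutant could be set against Col-0 and tested. AT4G17470 stood at 5.005, 4.47 and 4.33 in cbp60h in sets 1, 2 and 3, against 3.64 and 3.03 in Col-0 in sets 1 and 2. AT1G54010 stood at 5.82, 5.49 and 5.51 in cbp60h, against 4.23 and 4.16 in Col-0. For both genes every cbp60h array lay above both Col-0 arrays. AT4G24340 stood at 3.74, 3.85 and 3.78 in cbp60h, against 3.09 and 3.59 in Col-0. AT4G24350 stood at 5.70, 5.62 and 5.28 in cbp60h, against 4.39 and 4.92 in Col-0. These too did not overlap, and for 28.2% of all named genes every cbp60h array likewise lay above both Col-0 arrays.

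In limma's test across the 181 named genes, AT4G17470 rose in cbp60h by 1.27 (SE 0.33, adjusted p = 0.0215) and AT1G54010 by 1.41 (SE 0.27, adjusted p = 0.00408). If the base is 2, these are 2.41-fold and 2.66-fold rises. AT4G24350 differed by 0.88 (SE 0.35, adjusted p = 0.120) and AT4G24340 by 0.45 (SE 0.33, adjusted p = 0.443), which did not pass. The 2 called genes of 4 stand beside 13.8% of named genes called in this comparison in either direction, and 8.84% called higher. The median difference was 1.07 over the 4 genes and 0.08 over all named genes. The call of AT4G17470 was lost without cbp60h of set 1 (1.07, adjusted p = 0.0615) or without Col-0 of set 2 (0.97, adjusted p = 0.120). AT1G54010 kept its call without each of the 5 arrays in turn, with adjusted p between 0.00761 and 0.0269. With only the 5 arrays of both genotypes in the fit, neither gene was called (adjusted p = 0.0734 for AT4G17470 and 0.0540 for AT1G54010).

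Of 24 markers listed for mesophyll, guard cells, phloem, epidermis, trichomes and roots, AT1G62480 alone was among the named genes, so the leaf identity could hardly be checked. AT1G62480, listed for guard cells, fell by 1.37 (SE 0.22, adjusted p = 9.85e-04) in cbp60h with hrcC at 9 h, in limma's test. In that comparison 13.8% of named genes were called. At 9 h AT1G62480 was not called against Col-0 in the double mutant (-0.05, adjusted p = 0.959), the triple mutant (-0.34, adjusted p = 0.614) or pad4-1 (-0.16, adjusted p = 0.959). In a comparison added after values were seen, AT1G62480 was lower in cbp60h than in the double mutant (-1.33, adjusted p = 3.82e-04, 24.9% of named genes called). Its part in the differences of AT4G17470 and AT1G54010 was not tested.

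The triple mutant, the double mutant and pad4-1 were likewise set against Col-0 with hrcC at 9 h. AT4G17470 stood at 4.01 and 3.64 in the triple mutant, at 4.40 and 4.53 in the double mutant and at 3.82 and 3.59 in pad4-1 (sets 1 and 2), against 3.64 and 3.03 in Col-0. AT1G54010 stood at 4.76 and 4.95 in the triple mutant, at 4.55 and 4.56 in the double mutant and at 4.95 and 4.67 in pad4-1, against 4.23 and 4.16 in Col-0. Only pad4-1 overlapped with Col-0 for AT4G17470, and no mutant did for AT1G54010. The triple mutant barely cleared Col-0 for AT4G17470, at 3.640 in set 2 against 3.636 in Col-0 of set 1. AT4G24340 stood at 3.62 and 4.39 in the triple mutant, at 3.63 and 4.52 in the double mutant and at 3.60 and 4.00 in pad4-1, against 3.09 and 3.59 in Col-0. AT4G24350 stood at 5.80 and 5.59 in the triple mutant, at 5.41 and 5.65 in the double mutant and at 5.70 and 3.93 in pad4-1, against 4.39 and 4.92 in Col-0. For AT4G24340 the lower array of each mutant lay just above the higher Col-0 array, and for AT4G24350 the pad4-1 array of set 2 lay below both Col-0 arrays.

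None of the 4 genes was called in the triple mutant, the double mutant or pad4-1 against Col-0 at 9 h. The triple mutant differed from Col-0 by 0.49 to 1.04 over the 4 genes (adjusted p = 0.135 to 0.614 in limma), with 6.63% of named genes called. Its largest difference was that of AT4G24350, at 1.04 (SE 0.39, adjusted p = 0.135), and its smallest that of AT4G17470, at 0.49 (SE 0.36, adjusted p = 0.614). The 12 called genes split into 1 higher and 11 lower, and into 1 and 3 after centring on the median. The double mutant differed from Col-0 by 0.36 to 1.13 over the 4 genes (adjusted p = 0.347 to 0.712), with 0% of named genes called by limma and 15 at an unadjusted p under 0.05. AT4G17470 had the largest of these, at 1.13 (SE 0.36, adjusted p = 0.347), which was the second highest of all 181 differences. In pad4-1 the differences were 0.16 to 0.62 (adjusted p = 0.776 to 0.963), with 0% of named genes called by limma and 10 at an unadjusted p under 0.05. The largest, 0.62 (SE 0.29), was that of AT1G54010.

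In the triple and the double mutant all 4 genes lay above Col-0 on every 9 h array, as 9.94% of named genes did in the triple mutant and 14.9% in the double mutant. In pad4-1 this held for AT1G54010 and AT4G24340, beside 10.5% of named genes. The count in the triple mutant includes AT4G17470, for which it rests on 3.640 against 3.636. The median difference of the 4 genes was 0.66 in the triple mutant, 0.80 in the double mutant and 0.42 in pad4-1, while over all named genes it was -0.08, -0.03 and -0.04. Scaling moved the median over all named genes in the triple mutant to 0.12 (quantile) and 0.20 (centring). Relative to the median of the same fit, the triple mutant differences of the 4 genes ran between 0.58 and 1.12 as deposited and between 0.70 and 1.09 after quantile normalization.

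At 24 h after hrcC each genotype had 1 array, all in set 3, so these differences have no replicate of their own. AT4G17470 stood at 2.38 in the triple mutant, 4.08 in the double mutant and 3.53 in pad4-1, against 3.75 in Col-0. AT1G54010 stood at 3.90 in the triple mutant, 4.23 in the double mutant and 4.46 in pad4-1, against 4.61 in Col-0. For both genes the triple mutant array was the lowest of the 4, below Col-0 by 1.37 for AT4G17470 and 0.71 for AT1G54010, while with Psm it was the highest. AT4G24340 stood at 3.74 in the triple mutant, 3.61 in the double mutant and 4.29 in pad4-1, against 2.96 in Col-0. AT4G24350 stood at 6.46 in the triple mutant, 5.31 in the double mutant and 5.81 in pad4-1, against 4.51 in Col-0. For both phosphorylase-like genes all 3 mutants lay above Col-0, as they did in the Psm leaves of the same set. No share over all named genes stands beside this, and the genes were chosen for their Psm values, so nothing is read from it.

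To use all 3 sets, the 12 hrcC arrays of these 4 genotypes (9 h in sets 1 and 2, 24 h in set 3) entered a second limma fit with the set as a block. Set and time cannot be told apart in it. AT4G24340 was the 1 gene of the 4 that was called: the mean of the triple mutant, the double mutant and pad4-1 rose above Col-0 by 0.72 (SE 0.19, adjusted p = 0.0364), with 9.39% of named genes called in this comparison and 1.1% called higher. The split of all calls was 2 higher and 15 lower, and other scalings gave 3 and 6 (quantile) or 2 and 7 (centring). By genotype AT4G24340 differed from Col-0 by 0.70 (SE 0.23) in the triple mutant, 0.71 (SE 0.23) in the double mutant and 0.75 (SE 0.23) in pad4-1, with adjusted p = 0.0739, 0.178 and 0.216. It lay above Col-0 in all 9 within-set differences, between 0.41 and 1.34, as 1.1% of named genes did. Differences of the same set share their Col-0 array. The Col-0 values of AT4G24340 in this fit were 3.09, 3.59 and 2.96, below the median of every array (3.90 to 4.53). Its Col-0 values with Psm (2.94, 3.01 and 3.44) also lay below those medians. AT4G24340 was not alone in this. AT4G17470 in Col-0 with hrcC (3.64, 3.03 and 3.75) and AT1G54010 in Col-0 with Psm (2.87, 3.73 and 3.22) also lay below those medians. The part of low signal in the differences of these genes, the called rise of AT4G17470 in cbp60h included, was not tested. The call of AT4G24340 was lost without any 1 of 10 of the 12 arrays, with differences of 0.62 to 0.82. It was also lost with time in place of the set block (adjusted p = 0.143) and without set 3 (0.62, adjusted p = 0.116). Leaving out the double mutant of set 3 or pad4-1 of set 2 kept it.

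AT4G24350 was the highest of all 181 differences between the triple mutant and Col-0 in that fit, at 1.34 (SE 0.40, adjusted p = 0.0537), just short of a call. It was called in 5 of 6 other settings, with values of 1.34 to 1.59 and adjusted p of 0.0232 to 0.0485. The exception was the fit without set 3, at 1.04 (adjusted p = 0.281). With each of the 6 arrays of both genotypes left out in turn, the difference was 1.12 to 1.73 (adjusted p = 0.0124 to 0.217). Only 1 of those fits, without Col-0 of set 2, called it (1.73, adjusted p = 0.0124). Within-set differences were counted here too. Those of the same set share their Col-0 array, and no share over all named genes is given for counts below 9, so nothing is read from them. AT4G24350 lay above Col-0 in 8 of 9 within-set differences, the exception being pad4-1 of set 2 at -0.99. AT4G17470 lay above Col-0 in 7 and AT1G54010 in 6 of the 9, and the negative ones came from set 3 in the triple mutant and pad4-1, and for AT1G54010 also in the double mutant. Neither was called: AT4G17470 differed by -0.13 (SE 0.32) in the triple mutant, 0.86 (SE 0.32) in the double mutant and 0.17 (SE 0.32) in pad4-1. AT1G54010 differed by 0.21 (SE 0.26) in the triple mutant, 0.11 (SE 0.26) in the double mutant and 0.36 (SE 0.26) in pad4-1. Of all named genes limma called 11.6% in the triple mutant, 3.31% in the double mutant and 1.1% in pad4-1. The sign of the triple mutant difference of AT4G17470 turned with the scaling, to 0.22 after quantile normalization and 0.12 after centring.

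**Figure D3:**
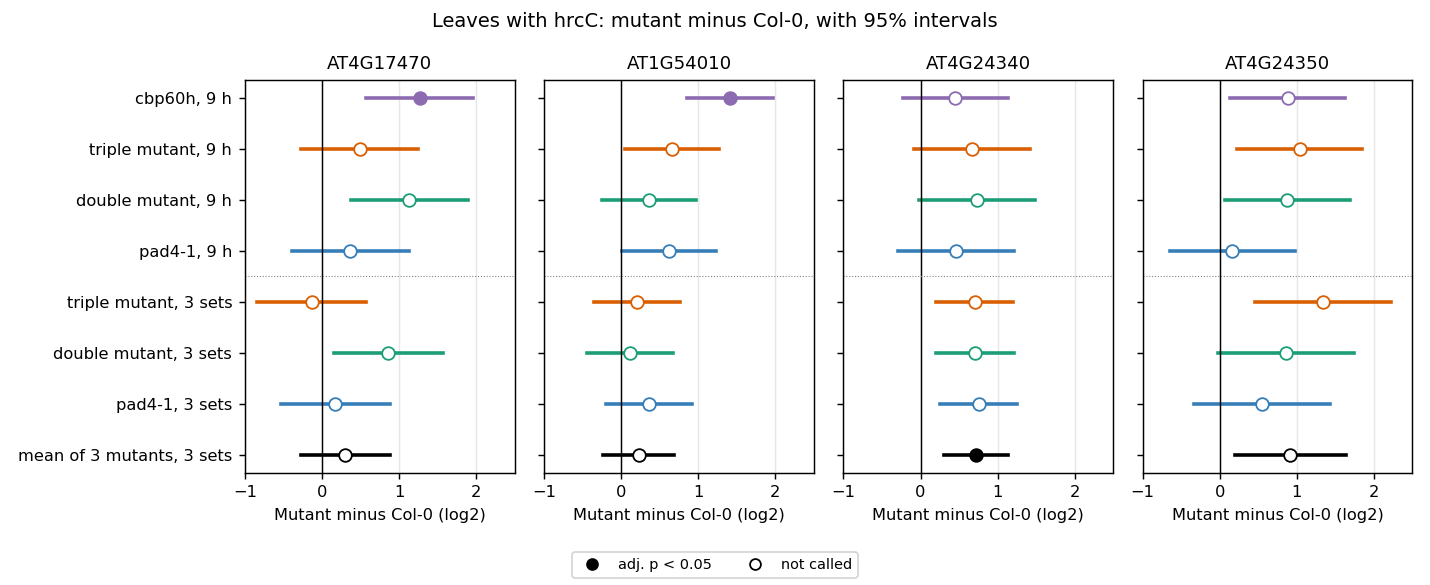
Mutant minus Col-0 in leaves with hrcC (log2, horizontal axis) for each gene, with 95% intervals; the upper rows use the 9 h arrays, the lower rows all 3 sets. Filled circles passed limma's test at an adjusted p under 0.05: AT4G17470 and AT1G54010 in cbp60h, and AT4G24340 in the mean of the 3 mutants.

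Among the mutants with hrcC at 9 h, none of the 4 genes was called between the triple mutant and the double mutant, the triple mutant and pad4-1, or the double mutant and pad4-1 (background 0.552%, 0.552% and 0%; 27, 15 and 5 named genes had an unadjusted p under 0.05 in limma). These differences ran between -0.64, for AT4G17470 in the triple minus the double mutant, and 0.88, for AT4G24350 in the triple mutant minus pad4-1. AT4G24350 in pad4-1 had the widest spread of any group, 4.82 ± 1.25 (SD, n = 2). Without pad4-1 of set 1 it was called in the triple mutant against pad4-1 (1.76, adjusted p = 0.00316) and in the double mutant against pad4-1 (1.60, adjusted p = 0.0182), and without pad4-1 of set 2 those differences were -0.01 and -0.17.

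After these values had been seen, cbp60h was also compared with the other mutants at 9 h. AT1G54010 was higher in cbp60h than in the double mutant by 1.06 (SE 0.27, adjusted p = 0.00619) and than in pad4-1 by 0.80 (SE 0.27, adjusted p = 0.0435). Against the triple mutant the difference was 0.75 (SE 0.27, adjusted p = 0.0511), which did not pass. Many genes were called in these comparisons: 24.9% of named genes against the double mutant, 18.8% against pad4-1 and 21% against the triple mutant. The split of calls moved with the scaling: against the double mutant it was 29 higher and 16 lower as deposited and 21 and 22 after quantile normalization. Against pad4-1 it was 23 and 11 as deposited and 10 and 16 after quantile normalization, and against the triple mutant 31 and 7 as deposited and 16 and 17. The call of AT1G54010 against the double mutant was lost without the double mutant of set 1 (1.05, adjusted p = 0.0507). Against pad4-1 it was lost without any 1 of the 5 arrays, after quantile normalization (0.53, adjusted p = 0.162) and after centring (0.65, adjusted p = 0.111). With the set as a block the difference from the triple mutant was called (0.78, adjusted p = 0.0453), and so was AT4G17470 against pad4-1 (0.96, adjusted p = 0.0427; 0.90, adjusted p = 0.0585, without the block). The other differences of AT4G17470, AT4G24340 and AT4G24350 ran between -0.28 and 0.78 and were not called.

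Within each set, the Psm array of a genotype can be set against its hrcC array, which was taken at 9 h in sets 1 and 2 and at 24 h in set 3. Bacterium and, in sets 1 and 2, time differ together, and the Psm side entered the choice of the genes. For AT4G17470 Psm minus hrcC was 4.73, 4.80 and 5.82 in the triple mutant, 3.13, 3.001 and 3.16 in the double mutant and 3.84, 3.15 and 3.96 in pad4-1, against 0.56, 2.40 and 0.91 in Col-0 (sets 1, 2 and 3). Every array with Psm stood above its hrcC partner for this gene, in Col-0 too. For AT1G54010 it was 2.08, 2.09 and 2.74 in the triple mutant, 0.06, 0.70 and 1.23 in the double mutant and 0.57, 0.81 and 0.52 in pad4-1, against -1.35, -0.43 and -1.39 in Col-0. For AT1G54010 Psm leaves stood above hrcC leaves in all mutant pairs and below them in all Col-0 pairs. Such counts over pairs were made for the 4 genes only, with no share over all named genes beside them. Their Psm side, high in mutants and low in Col-0, is the one the genes were chosen on.

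For AT4G24340 Psm minus hrcC was 1.77, -0.11 and 1.43 in the triple mutant, 1.79, 0.31 and 1.50 in the double mutant and 0.26, -0.16 and -0.64 in pad4-1, against -0.14, -0.59 and 0.48 in Col-0. In set 2 it was lower than in set 1 in every genotype. For AT4G24350 it was 0.76, 0.39 and 0.18 in the triple mutant, -0.04, -0.50 and -0.03 in the double mutant and -0.70, 1.17 and -0.73 in pad4-1, against -0.77, -0.95 and -0.23 in Col-0. Only the triple mutant had higher Psm than hrcC values of AT4G24350 in all 3 sets, and the pad4-1 exception of set 2 is the pair with the low hrcC array.

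**Figure D4:**
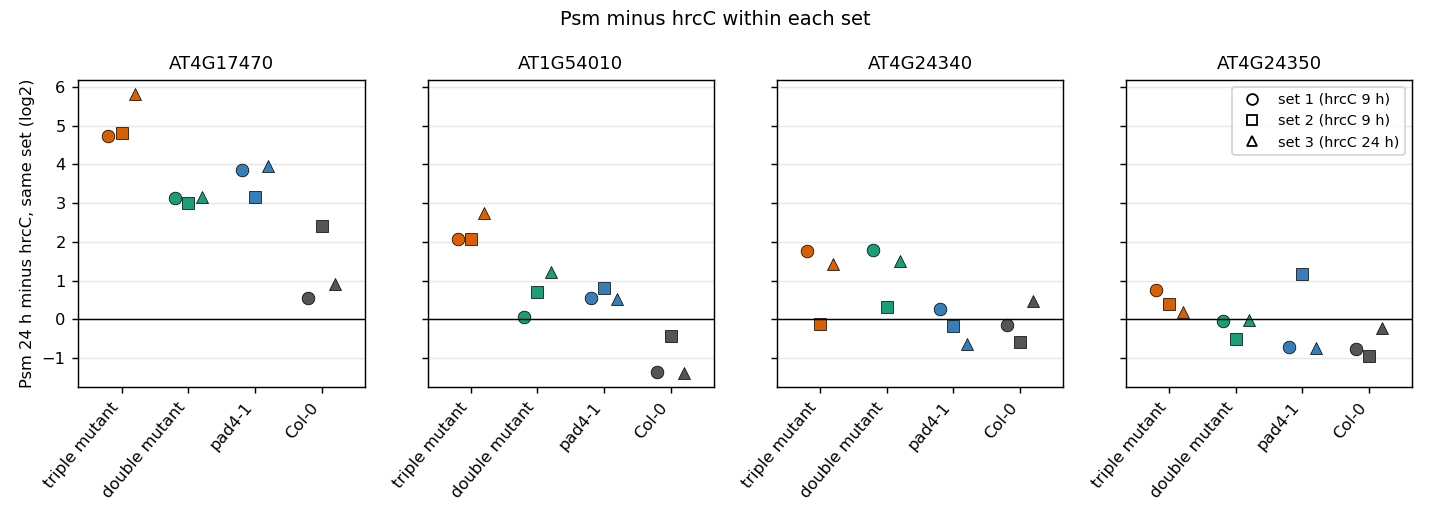
Psm at 24 h minus hrcC within each set (log2, vertical axis) for each gene and genotype; symbols mark the sets, of which set 3 has hrcC at 24 h. All Col-0 points of AT1G54010 and AT4G24350 lie below 0, and all points of AT4G17470 lie above 0.

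Over all 13 groups of arrays, the order of the means differed between the genes. For AT4G17470 the triple mutant, the double mutant and pad4-1 with Psm came first, followed by Col-0 with Psm (4.76), which overlapped with cbp60h with hrcC (4.60). For AT1G54010 cbp60h with hrcC (5.61) came second after the triple mutant with Psm and overlapped with pad4-1 with Psm, and Col-0 with Psm came last (3.27). For AT4G24340 the double and triple mutants with Psm came first, and neighbouring groups overlapped down to the ninth place. The 3 Col-0 groups held the last 3 places for AT4G24340 and for AT4G24350, with Col-0 at 24 h after hrcC lowest (2.96) for AT4G24340 and Col-0 with Psm lowest (3.95) for AT4G24350. For AT4G24350 the single triple mutant array with hrcC at 24 h (6.46) lay within the range of the triple mutant with Psm.

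The 4 genes moved alike over the 12 Psm arrays, with Pearson's r between 0.67 (AT1G54010 with AT4G24340) and 0.93 (AT4G17470 with AT1G54010). Over the 15 hrcC arrays r ran between 0.0034 (AT4G17470 with AT4G24350) and 0.74 (AT4G17470 with AT1G54010). These correlations describe arrays that share genotypes and sets, and those with Psm reflect the choice of the genes.

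By Pearson's r over all 27 arrays, again as a description, the named genes most like AT4G17470 were AT2G34810, a gene for a berberine bridge enzyme-like protein (0.85), the glucosyltransferase gene UGT84A3 (0.83) and AT2G26690, a nitrate transporter-family gene (0.83). Least like it were CCL (-0.88) and the protease inhibitor gene AT2G38870 (-0.84). For AT1G54010 the highest were AT5G21105, a gene for an ascorbate oxidase-like protein (0.70), UGT84A3 (0.68) and AT4G17470 itself (0.67), and the lowest were AT2G42360, a RING finger protein gene (-0.67), and AT4G25900 (-0.64). For AT4G24340 the highest were AT5G21105 (0.76), AT4G17470 (0.62) and AT4G24350 (0.60), and the lowest the transcription factor gene WRKY53 (-0.78) and the aspartyl protease-family gene AT2G39710 (-0.61). For AT4G24350 they were the ATP sulfurylase gene APS3 (0.72), AT5G21105 (0.65) and AT1G54010 (0.65), with AT1G08050 (-0.77) and AT2G39710 (-0.76) lowest. AT5G21105 was among the 3 most alike genes of AT1G54010, AT4G24340 and AT4G24350. Several of these likenesses rest on the Psm arrays: within the 15 hrcC arrays r was -0.27 for AT5G21105 with AT1G54010 and 0.02 for CCL with AT4G17470. AT2G39710 kept its opposite pattern to AT4G24350 within the hrcC arrays, at -0.75.

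Of the listed genes of related pathways few were measured under a name: 0 of 24 relatives of the 4 genes, 0 of 34 jasmonate and wounding genes, 0 of 14 glucosinolate breakdown genes, 2 of 11 ethylene and jasmonate-ethylene defence genes, and 3 of 26 salicylic acid genes. Of the 2 measured defence genes, PDF1.2, a plant defensin induced by jasmonate and ethylene together, was called in some hrcC comparisons and AT2G38870 in none. PDF1.2 rose by 2.31 (SE 0.76, adjusted p = 0.0482) in cbp60h with hrcC at 9 h, where 13.8% of named genes were called. Over the 3 sets it rose by 2.43 (SE 0.56, adjusted p = 0.0306) in the double mutant, where 3.31% were. In the mean of the 3 mutants it rose by 1.65 (SE 0.45, adjusted p = 0.0406), where 9.39% were. PDF1.2 and AT4G24340 were the 2 genes called higher in that mean. PDF1.2 was also higher in cbp60h than in the triple mutant at 9 h (2.31, SE 0.76, adjusted p = 0.0409), where 21% were called. At 9 h it was not called in the double mutant (1.65, adjusted p = 0.583), pad4-1 (1.18, adjusted p = 0.776) or the triple mutant (0.0068, adjusted p = 0.994). Over the 3 sets it was not called in pad4-1 (1.97, adjusted p = 0.200). In the triple mutant over the 3 sets PDF1.2 differed from Col-0 by 0.55 (SE 0.56, adjusted p = 0.591). All p values here are limma's.

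Of the 3 measured salicylic acid genes, 0 were called in cbp60h at 9 h, where 13.8% of all named genes were called. In the triple mutant, where 6.63% were called, 1 was called lower. In the double mutant and pad4-1 at 9 h limma called 0% of named genes, these 3 included. The gene called lower, GRX480, a glutaredoxin gene induced by salicylic acid, fell by 2.27 (SE 0.35, adjusted p = 5.98e-04) in the triple mutant at 9 h. UGT76B1, another of the 3, differed there by -1.81 (SE 0.54, adjusted p = 0.0509), just short of a call. Over the 3 sets, with 11.6% of named genes called, GRX480 fell by 2.55 (SE 0.30, adjusted p = 3.29e-04) and UGT76B1, a glucosyltransferase gene that acts on salicylic acid among other substrates, by 1.89 (SE 0.30, adjusted p = 0.00136) in the triple mutant. In the double mutant UGT76B1 fell by 1.61 (SE 0.30, adjusted p = 0.0124), with 3.31% of named genes called, and in pad4-1 0 of the 3 were called, with 1.1% of named genes called. WRKY53 was called in none of these comparisons, with differences between -0.50 and 0.24. With Psm, as a description on the arrays used for the choice, all 3 salicylic acid genes lay below Col-0 in the triple mutant. The differences were -1.92 (SE 0.27) for WRKY53, -1.32 (SE 0.28) for GRX480 and -2.36 (SE 0.44) for UGT76B1. The double mutant and pad4-1 did not share this for all 3 genes. WRKY53 differed from Col-0 by -1.61 (SE 0.27) in the double mutant and -0.80 (SE 0.27) in pad4-1. GRX480 differed by 0.15 (SE 0.28) and 0.14 (SE 0.28), and UGT76B1 by -0.57 (SE 0.44) and 0.06 (SE 0.44). The 2 defence genes lay on opposite sides of Col-0 in the triple mutant with Psm, PDF1.2 at 2.36 (SE 0.68) and AT2G38870 at -1.06 (SE 0.48).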

How the data were processed

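The authors deposited 1 table of log2 values for 576 probes on 27 one-colour arrays, between 0.66 and 11.4; the values themselves gave the base. No source used here states the scanner, background correction or normalization. Array medians ran between 3.90 and 4.53. Probe names came from the platform annotation (181 with 1 gene, all matched in RefSeq's gene table, TAIR10.1). Members and gene lists were chosen with earlier results of these data known. The genes named beyond the members are listed pathway genes and, per member, the 3 most and 2 least correlated named genes.

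With limma 3.58.1 under R 4.3.3, means were fitted for the 9 groups with 2 or 3 arrays (23 arrays), and genotype plus set for the 12 hrcC arrays of the 4 genotypes with all sets. Every adjusted p is limma's, two-sided, after Benjamini and Hochberg over the 181 genes, with calls under 0.05. The fits were tested on simulated data with independent noise and no set effect, so that test did not cover the likeness of arrays of a set. Per the labels a set is 1 experiment; same-set deviations correlated at 0.14 to 0.62 with Psm (18 of 18 pairs over 0.1) and at -0.12 to 0.44 with hrcC at 9 h (13 of 20). Separate cultures of plants are not described. In the 23-array fit p values measure the spread between arrays of a group, which come from different sets. In the 12-array fit the set block removes the shift that a set's arrays share. Its p values measure the spread that remains, in the genotype differences from set to set. Genotypes were not checked, since no named probe is for CBP60g, CBP60h or PAD4. The number of arrays limits the precision. A planned promoter motif search was not run, since no promoter sequences were used here. Alternatives were other scalings, probe sets, blocks and left-out arrays.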

Additional observations from a re-analysis of the deposited data

Results flagged for a closer look

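For AT1G54010 in 3 mutants and AT4G24350 in the triple mutant, Psm minus hrcC was above 0 in all 3 sets in the mutant and below 0 in all 3 in Col-0. This was looked for in the 4 genes only, so no share over all named genes stands beside it. The smallest of these mutant values was 0.06, for AT1G54010 in the double mutant of set 1. The differences between genotypes were not tested, because the genes were chosen on the Psm arrays. For AT1G54010 the mean of Psm minus hrcC over the 3 sets was 2.30 in the triple mutant against -1.06 in Col-0, a gap of 3.36. It was 0.66 in the double mutant against -1.06 in Col-0, a gap of 1.72, and 0.63 in pad4-1 against -1.06 in Col-0, a gap of 1.69. For AT4G24350 it was 0.44 in the triple mutant against -0.65 in Col-0, a gap of 1.09. The hrcC partner of set 3 was taken at 24 h and those of sets 1 and 2 at 9 h, and the part of time in these gaps was not tested.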

How the results depend on the processing

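With Psm the differences of the 4 genes from Col-0 kept their sign and stayed within 1 SD between arrays under every alternative run. Among mutants with Psm, AT4G17470 in the triple minus the double mutant was 1.53 (quantile) and 1.31 (centring), AT4G24350 was 1.41 there (centring), and AT4G24350 in the double mutant minus pad4-1 was 0.11 (quantile). With hrcC, 555 recomputed differences of the 4 genes kept their sign and their side of the threshold, 24 lost a call, 18 gained one, and 35, none of them called, changed sign. The causes were not tested, beyond the fewer arrays of a left-out fit. Groups of 2 or 3 arrays limit all calls. The comparisons of cbp60h with other mutants, the setting without set 3 and other settings for the departures from the sum were added after values were seen.

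With only the groups compared in the fit, limma called 0 named genes and 0 of the 4 in cbp60h against Col-0 (25 and 2 with all groups), 7 named genes in the triple mutant against Col-0, 6 against the double mutant and 13 against pad4-1, and 2 of the 4 in cbp60h against pad4-1 and 1 against the triple mutant. Centring left 4 named genes called in the triple mutant against Col-0 at 9 h, and 2 against the double mutant, as did quantile normalization. Both scalings left 0 of the 4 called in cbp60h against pad4-1. Using all probes called 1 of the 4 in cbp60h against the triple mutant. The replicate block at 9 h called 7 named genes between the triple and the double mutant, and of the 4 genes it called 2 in cbp60h against pad4-1 and 1 against the triple mutant; it changed no other count by over 1.5 times.

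Over the 3 sets, the mean of the mutants against Col-0 gave 9 called genes under either scaling and 4 without set 3, and 0 of the 4 without the replicate block or without set 3. The double mutant gave 3 named genes without the replicate block and 0 without set 3, and pad4-1 gave 0 without set 3. In the triple mutant 2 of the 4 were called under either scaling, and 1 with all probes, without dim probes and without the replicate block.

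Leaving out 1 array at a time gave 5 to 25 called genes in cbp60h against Col-0, 23 to 38 against the double mutant, 6 to 29 against pad4-1 and 8 to 26 against the triple mutant. At 9 h it gave 1 to 19 in the triple mutant against Col-0, 0 to 1 against the double mutant and 1 to 3 against pad4-1, and 0 to 1 in the double mutant against Col-0 and against pad4-1. Over the 3 sets it gave 10 to 34 in the triple mutant, 0 to 14 in the double mutant, 0 to 2 in pad4-1 and 3 to 17 in their mean. Of the 4 genes 1 to 2 were called in cbp60h against Col-0, 0 to 2 in the mean, and 0 to 1 in cbp60h against the double mutant or pad4-1, in the triple or double mutant against pad4-1 and in the triple mutant over the 3 sets. In the mean both AT4G24340 and AT4G24350 (1.12, adjusted p = 0.0108) were called without pad4-1 of set 2.

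The following signs changed. AT4G24340 in the triple minus the double mutant was 0.094 (quantile), 0.10 (centring) and -0.51 to 0.38 with 1 array left out. AT4G17470 in cbp60h minus the double mutant was -0.0028 (centring) and -0.067 to 0.27 with 1 array left out. AT4G24350 there was -0.15 (quantile), -0.14 (centring), -0.033 (replicate block) and -0.12 to 0.13 with 1 array left out. AT4G17470 in the triple mutant over the 3 sets was 0.22 (quantile), 0.12 (centring), 0.49 (without set 3) and -0.42 to 0.34 with 1 array left out, and in pad4-1 -0.12 to 0.54. AT1G54010 over the 3 sets was -0.055 to 0.43 in the double mutant and -0.015 to 0.52 in the triple mutant with 1 array left out. In the triple mutant minus pad4-1, 1 left-out array gave -0.063 to 0.31 for AT4G17470, -0.093 to 0.19 for AT1G54010, -0.18 to 0.59 for AT4G24340 and -0.0066 to 1.76 for AT4G24350. For AT4G24340 it gave -0.18 to 0.72 in the double mutant minus pad4-1, and in cbp60h -0.73 to 0.17 against the double mutant, -0.21 to 0.19 against pad4-1 and -0.60 to 0.17 against the triple mutant. For AT4G24350, the differences from pad4-1 were 0.72 in cbp60h, 0.88 in the triple mutant and 0.72 in the double mutant with all arrays, and turned below 0 without pad4-1 of set 2. Over all left-out arrays it gave -0.17 to 1.60 in cbp60h and in the double mutant against pad4-1, and -0.72 to 1.05 in pad4-1 against Col-0.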
